A study of Mus musculus with 18 samples.

Results

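The genes described here are 10 genes of neutrophil granules and of the neutrophil surface: S100a8, S100a9, Ngp, Camp, Mmp8, Mmp9, Cd177, Ly6g, Cxcr2 and Retnlg. They were chosen by name, as 10 of the 54532 genes in the deposited count table, and each name matched 1 row. Of the 10 genes, 5 (S100a8, S100a9, Mmp9, Cd177 and Cxcr2) passed the filter on low counts and entered the test across 17537 genes. The other 5 (Ngp, Camp, Mmp8, Ly6g and Retnlg) had 12 to 61 counts summed over all libraries and are described by their counts.

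Whole larynges of male C57BL6/J mice, 8 to 9 weeks old, were profiled by mRNA sequencing in 18 libraries. The 6 smoke libraries came from mice exposed to smoke of 3R4F research cigarettes, the 6 e-cigarette libraries from mice that breathed JUUL Virginia tobacco e-cigarette aerosol, and the 6 air libraries from mice kept in room air. Daily exposures of 1 hour in a whole-body chamber were given on 5 days a week over 4 weeks, and the groups shared strain, sex and age range. Total counts were 15.9 to 20.3 M per smoke library, 16.7 to 22.5 M per e-cigarette library and 15.6 to 17.1 M per air library, and a floor of 3 counts corresponded to 0.138 to 0.192 counts per 1 M (CPM). The labels speak of individual mice but do not tie each library to 1 animal, so p-values measure the spread between these samples.

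Neutrophils build their granules in a fixed order while they mature in the bone marrow: azurophil granules first, with proteases such as elastase, then specific granules, then gelatinase granules. Granule mRNAs are made mostly in these precursors, whereas circulating neutrophils that enter a tissue retain transcripts of cytosolic and surface proteins such as S100a8, S100a9 and the chemokine receptor gene Cxcr2. Cd177 encodes a glycosylphosphatidylinositol-anchored glycoprotein of the neutrophil surface and of specific granules, which in humans binds the endothelial adhesion molecule PECAM1. Neutrophils reach airway mucosa along gradients of CXCR2 ligands, among them the products of Cxcl1, Cxcl2 and Cxcl5.

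The sequences directly upstream of 5 of these genes are shown because the question was whether Cd177 moves with the others, and they show which letters of myeloid transcription factor motifs the windows share. Each is the 250 bases before the RefSeq transcription start (GRCm38.p6), written 5′ to 3′ along the gene's strand. Capitals mark letters, on either strand, that match TATAAA, the core of a TATA box. Other capitals match TTNNGNAA, which C/EBP factors recognise. Capitals also match GAGGAA, the core of PU.1 sites. The last capitals match TGTTTAC, a forkhead factor motif. The windows lie at chr7:24760312-24760561 (minus strand) for Cd177, chr3:90668821-90669070 (plus strand) for S100a8, chr3:90695722-90695971 (minus strand) for S100a9, chr9:110419558-110419807 (plus strand) for Ngp and chr1:74153744-74153993 (plus strand) for Cxcr2.
Cd177: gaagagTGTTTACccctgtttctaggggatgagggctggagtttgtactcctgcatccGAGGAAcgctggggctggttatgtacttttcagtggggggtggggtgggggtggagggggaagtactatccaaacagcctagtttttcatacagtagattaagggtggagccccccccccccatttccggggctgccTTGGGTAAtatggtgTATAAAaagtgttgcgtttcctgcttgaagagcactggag
S100a8: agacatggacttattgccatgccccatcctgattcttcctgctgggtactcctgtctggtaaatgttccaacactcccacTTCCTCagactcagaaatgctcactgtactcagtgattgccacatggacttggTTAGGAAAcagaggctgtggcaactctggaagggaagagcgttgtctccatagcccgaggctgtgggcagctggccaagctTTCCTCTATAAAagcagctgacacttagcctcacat
S100a9: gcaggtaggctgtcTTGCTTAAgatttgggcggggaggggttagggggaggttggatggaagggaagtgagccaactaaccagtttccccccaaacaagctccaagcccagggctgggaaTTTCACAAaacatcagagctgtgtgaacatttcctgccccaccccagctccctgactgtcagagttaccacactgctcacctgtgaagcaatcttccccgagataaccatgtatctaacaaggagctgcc
Ngp: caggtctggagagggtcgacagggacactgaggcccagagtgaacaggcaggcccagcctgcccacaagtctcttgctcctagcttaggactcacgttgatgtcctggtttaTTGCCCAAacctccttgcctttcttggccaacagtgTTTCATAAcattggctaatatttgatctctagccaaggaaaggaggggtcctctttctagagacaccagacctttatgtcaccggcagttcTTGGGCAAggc
Cxcr2: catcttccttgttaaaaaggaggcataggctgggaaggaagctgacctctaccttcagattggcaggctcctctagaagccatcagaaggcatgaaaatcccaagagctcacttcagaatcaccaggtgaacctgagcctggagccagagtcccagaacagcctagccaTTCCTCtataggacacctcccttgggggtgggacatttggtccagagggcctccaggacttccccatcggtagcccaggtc
The Cd177 window held the TATA, C/EBP, PU.1 and forkhead letters, with the TATA box starting 40 bases before the transcription start. The S100a8 window held TATA, C/EBP and PU.1 letters, with the TATA box at 30 bases. The S100a9 and Ngp windows held C/EBP letters alone among the 4 motifs, and the Cxcr2 window held PU.1 letters alone. In S100a8 the PU.1 and TATA letters adjoin without overlapping. The deposited gene starts of S100a8, Ngp and Cxcr2 lie inside these windows, since the deposited table places them upstream of the RefSeq start.

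The promoter table held 9 of the 10 genes, and Mmp9 was not among them. The C/EBP letters were in 7 of the 9 genes' windows, against 36.9% of all 32851 promoter windows of that length. PU.1 letters were in 5 of 9 against 23.3% of all windows, TATA letters in 3 of 9 against 12.4%, and forkhead letters in 2 of 9, Cd177 and Retnlg, against 3.17%. The letters GTTNCC, a half-site of the RFX factors that drive cilia genes, were in 5 of 9 windows against 39.4%. The GCGTG core of the aryl hydrocarbon receptor motif, looked for because tobacco smoke activates that receptor, was in 0 of 9 windows against 28.2%. These matches describe letters in the windows and were not tested as binding sites.

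Per transcript length, Cd177 and S100a9 were the highest of the 10 genes, and Camp, Retnlg, Ngp, Mmp8 and Ly6g the lowest. Levels are given as reads per kilobase of gene length and 1 M counts (RPKM), as mean ± SD over all 18 libraries. Cd177 was at 10.8 ± 5.38 RPKM and S100a9, a calprotectin subunit gene, at 7.99 ± 5.02 RPKM. The difference between them was smaller than their spread: Cd177 was above S100a9 in 13 of 18 libraries and below it in 5. S100a9 was 6.65-fold above the next gene.

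Mmp9, the gelatinase of tertiary granules, was at 1.20 ± 0.695 RPKM, and S100a8, the other calprotectin subunit, at 0.895 ± 0.755 RPKM. Cxcr2 was at 0.585 ± 0.447 RPKM, so that each of these 3 neighbours in the order lay within the spread of the next. The others followed at 0.255 RPKM for Camp, 0.159 RPKM for Retnlg, 0.158 RPKM for Ngp, 0.0597 RPKM for Mmp8 and 0.0417 RPKM for Ly6g, each with an SD larger than its mean. Cd177 gave 9895 of the 13545 counts of the 10 genes together, or 73.1%.

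Several defining neutrophil transcripts were close to the floor in most libraries, among them Ly6g, Elane, Mpo and Fpr1. Others were higher: of 25 genes of mature neutrophil surface and cytosol, 12 had enough counts to test, among them Csf3r, Itgam and Il1r2. Ly6g, whose product is the surface marker used to gate mouse neutrophils, had 2 counts in the smoke group, 6 in the e-cigarette group and 4 in the air group, and 0 counts in 13 of 18 libraries. Elane, neutrophil elastase, had 15 counts in smoke, 13 in e-cigarette and 21 in air, and Mpo, myeloperoxidase, had 18 in smoke, 4 in e-cigarette and 41 in air. The 5 azurophil granule genes, with Elane and Mpo among them, summed to 3.34 CPM in air 2. In every other library that sum was at most 0.866 CPM. Fpr1, the formyl peptide receptor gene, had 19 counts in smoke, 8 in e-cigarette and 5 in air, and Cebpe, the transcription factor gene of specific granule formation, had 4 in smoke, 4 in e-cigarette and 3 in air. The name of the gene list therefore rests on what these genes are known for, and which cells of the larynx gave the Cd177, S100a9 and Mmp9 counts was not tested.

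**Figure D1:**
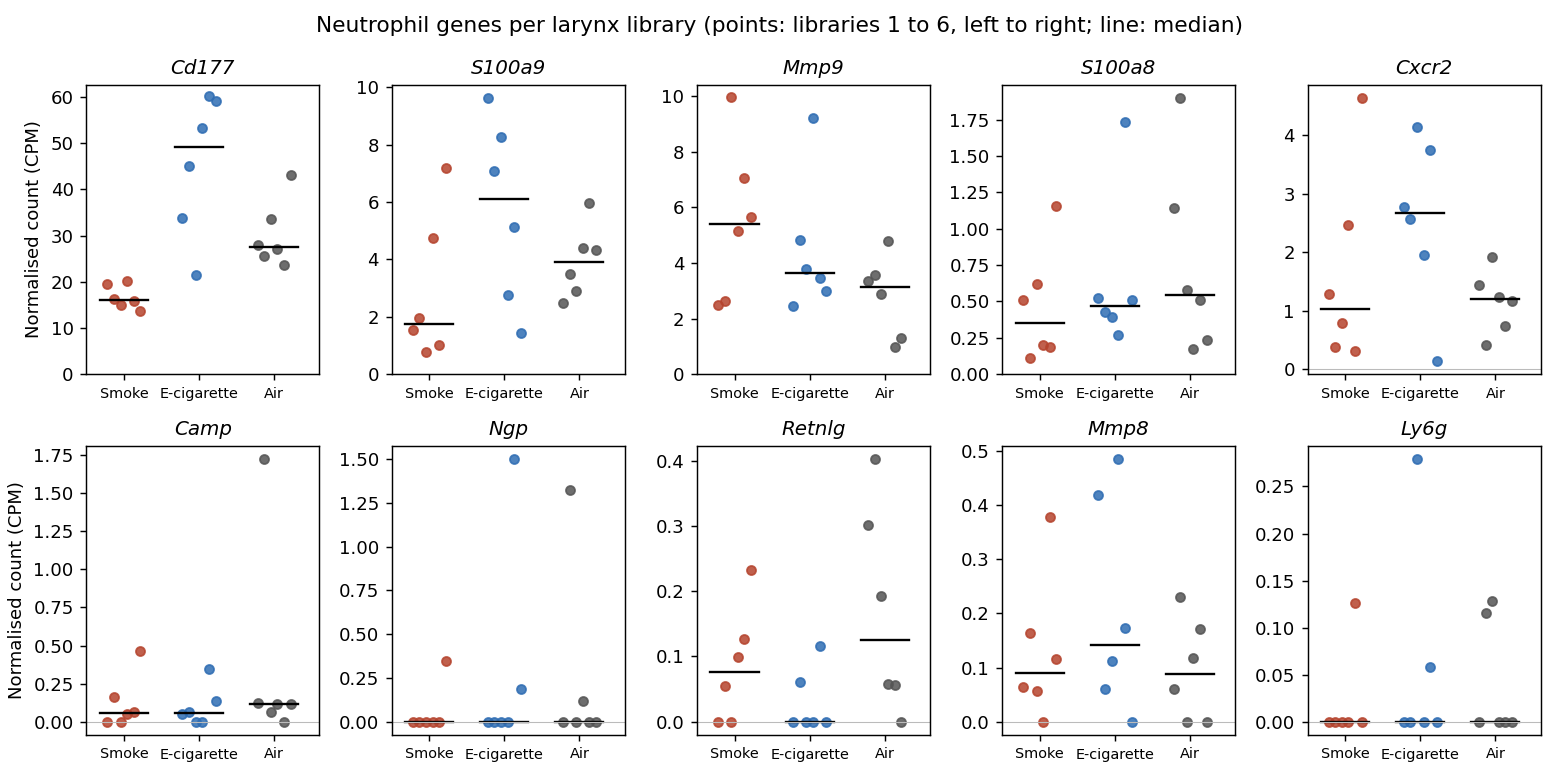
Normalised counts (CPM, linear axes that differ between panels) of the 10 genes in each library, with smoke, e-cigarette and air libraries from left to right and a line at each group's median. Every smoke library lies below every e-cigarette and every air library for Cd177 (13.6 to 20.1 CPM in smoke, 21.5 to 60.3 in e-cigarette, 23.6 to 43.2 in air), whereas the groups of the other 9 genes overlap.

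Cd177 (ENSMUSG00000052212, chr7:24743983-24760311, minus strand) was the only tested member called in any comparison of all libraries. In smoke libraries it had a lowest, median and highest value of 13.6, 16.0 and 20.1 CPM. In e-cigarette libraries these were 21.5, 49.2 and 60.3 CPM, and in air libraries 23.6, 27.5 and 43.2 CPM. All 6 smoke libraries lay below all 6 air libraries and below all 6 e-cigarette libraries, and the e-cigarette and air ranges overlapped.

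Cd177 fell in smoke relative to air by 0.85 on the log2 scale (1.81-fold lower, SE 0.21, edgeR adjusted p = 0.0471), and all 6 smoke libraries were below the lowest air library. It was 1 of 5 tested members called in that comparison, where 1.59% of all 17537 tested genes were called (0.975% higher, 0.616% lower) and 2.43% had groups that did not overlap. Cd177 rose in e-cigarette relative to air by a log2 fold change of 0.59 (1.51-fold, SE 0.21, edgeR adjusted p = 0.0408), the only call among the 5 tested members, where 25.1% of all tested genes were called (12.1% higher, 13% lower) and 10.5% had groups that did not overlap. In smoke versus e-cigarette the log2 fold change was -1.45 (2.73-fold lower, SE 0.21, edgeR adjusted p = 1.80e-04), again with 1 of 5 members called, against 16.5% of all tested genes called (10.4% higher, 6.1% lower) and 9.37% with groups that did not overlap. In whole-larynx RNA, fewer cells of a type and less RNA per cell cannot be told apart.

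Both calls against air were close to the threshold. Leaving out 1 library at a time gave log2 fold changes of -0.93 to -0.74 in smoke versus air, and the call was lost without air 3, 4, 5 or 6, without any 1 of the 6 smoke libraries and without e-cigarette 2 (adjusted p up to 0.0996). In e-cigarette versus air the values were 0.48 to 0.72, and the call was lost without air 1, 2, 3, 4 or 5, without smoke 2, 4 or 5 and without e-cigarette 2, 4, 5 or 6 (adjusted p up to 0.114). With the replicate number as a block the values were -0.84 (adjusted p = 0.103) and 0.56 (adjusted p = 0.0825) in edgeR. The call of smoke versus e-cigarette held in all 18 such fits and with the block (-1.40, edgeR adjusted p = 0.00135).

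The e-cigarette libraries differed in thyroid transcripts, which tended to run opposite to Cd177 within that group. In e-cigarette libraries 1 to 6, Cd177 was at 33.9, 45.0, 21.5, 53.3, 60.3 and 59.1 CPM. The summed level of 8 thyroid genes in the same libraries was 26784, 771, 29134, 102, 103 and 2857 CPM, against 57738 to 95263 CPM in smoke and 56612 to 98461 CPM in air. The 2 e-cigarette libraries with the most thyroid RNA thus had the lowest Cd177 of their group. Within the group the correlation of Cd177 with the thyroid score was -0.74 (Spearman -0.66, exact permutation p = 0.0944 for r, n = 6). No pooled value is given because the thyroid score fell into separate clusters. After the group means were subtracted, r over 18 libraries was -0.62, given without a test.

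Without e-cigarette libraries 2, 4, 5 and 6, Cd177 had a log2 fold change of -0.14 in e-cigarette versus air (edgeR adjusted p = 0.788) and of -0.74 in smoke versus e-cigarette (edgeR adjusted p = 0.144). With the thyroid score as a covariate, an alternative chosen after seeing the data, the values were -0.12 (adjusted p = 0.908) and -0.77 (adjusted p = 0.359), while smoke versus air stayed at -0.88 (adjusted p = 0.0233) in edgeR. With the counts of the thyroglobulin gene Tg removed and library sizes recomputed, the e-cigarette versus air value stayed at 0.58 and was called (edgeR adjusted p = 0.0483). The rise in e-cigarette and the amount of thyroid RNA cannot be told apart in these libraries. In smoke versus air the thyroid sums overlapped. Without e-cigarette 2, 4, 5 and 6 the Cd177 value there was -0.88 (edgeR adjusted p = 0.0213). Those libraries are in neither of the 2 groups, so leaving them out could hardly change it and says nothing about thyroid RNA.

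**Figure D2:**
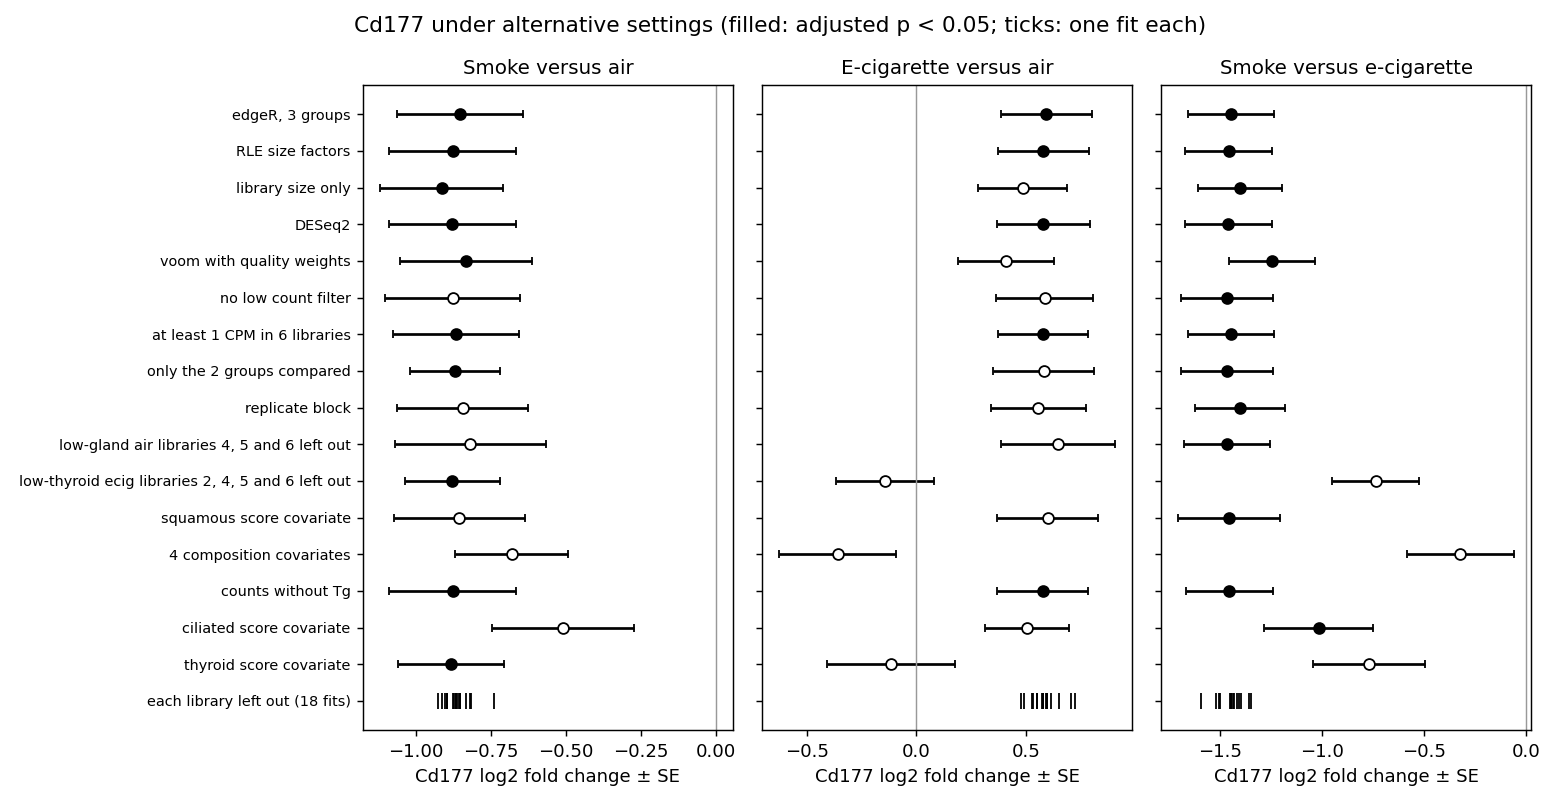
Cd177 log2 fold change with its SE (horizontal axis) under each alternative setting (vertical axis), for smoke versus air, e-cigarette versus air and smoke versus e-cigarette from left to right. Filled points have an adjusted p under 0.05 and ticks are the 18 fits without 1 library. The smoke versus air values run from -0.93 to -0.51 and keep their sign. E-cigarette versus air turns negative in 3 settings that leave out thyroid-poor libraries or model a thyroid score, whereas counts without Tg leave it at 0.58.

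S100a8 and S100a9 encode the subunits of calprotectin, among the most abundant cytosolic proteins of neutrophils, and lie near each other on chromosome 3. S100a8 (ENSMUSG00000056054, chr3:90668978-90670035, plus strand) had lowest, median and highest values of 0.109, 0.354 and 1.16 CPM in smoke. In e-cigarette they were 0.270, 0.467 and 1.73 CPM, and in air 0.175, 0.545 and 1.90 CPM. The ranges overlapped in every comparison, with high single libraries in each group.

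S100a9 (ENSMUSG00000056071, chr3:90692632-90695721, minus strand) had 0.788, 1.75 and 7.18 CPM in smoke as lowest, median and highest value. The values were 1.43, 6.11 and 9.64 CPM in e-cigarette and 2.47, 3.92 and 5.98 CPM in air. The spread within the exposed groups was wider than in air, and both exposed ranges contained the air range. No call was made for either gene: S100a8 had log2 fold changes of -0.71, -0.25 and -0.46 in smoke versus air, e-cigarette versus air and smoke versus e-cigarette (SE 0.61, 0.58 and 0.61).

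S100a9 had log2 fold changes of -0.44, 0.54 and -0.98 in the same order (SE 0.51, 0.50 and 0.51). The edgeR adjusted p-values were 0.543, 0.792 and 0.658 for S100a8 and 0.667, 0.463 and 0.206 for S100a9. Without smoke library 6 alone, S100a9 was called in smoke versus e-cigarette (-1.48, edgeR adjusted p = 0.0470). Without air library 2, S100a8 was at 0.27 in e-cigarette versus air. On the RPKM scale S100a9 exceeded S100a8 in 18 of 18 libraries. The ratio of S100a9 to S100a8 ranged from 1.69 to 31.9 in smoke (median 7.67), 3.75 to 28.1 in e-cigarette (median 17.8) and 2.46 to 33.2 in air (median 11.1), so the subunit transcripts were not in a constant ratio.

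Of the granule enzyme and peptide genes among the 10, Mmp9 alone was high enough to test. Mmp9 (ENSMUSG00000017737, chr2:164940780-164955850, plus strand) had lowest, median and highest values of 2.49, 5.41 and 9.96 CPM in smoke. The values were 2.46, 3.63 and 9.23 CPM in e-cigarette and 0.968, 3.13 and 4.79 CPM in air. The groups overlapped, although the lowest values, in air libraries 5 and 6, were below every exposed library.

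The Mmp9 log2 fold changes were 0.97 in smoke versus air, 0.66 in e-cigarette versus air and 0.30 in smoke versus e-cigarette (SE 0.41, 0.41 and 0.40). None passed the test, with edgeR adjusted p-values of 0.199, 0.257 and 0.660. Summed over 14 genes, cartilage transcripts were 328 to 892 CPM in smoke, 243 to 877 CPM in e-cigarette and 131 to 564 CPM in air. Air 4, 5 and 6 were lowest, at 162, 131 and 140 CPM, and air 4 had the highest Mmp9 of its group.

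Ngp (ENSMUSG00000032484), Camp (ENSMUSG00000038357) and Mmp8 (ENSMUSG00000005800) encode neutrophilic granule protein, the cathelicidin precursor and neutrophil collagenase of specific granules. Ngp had 6 counts in the smoke group, 30 in e-cigarette and 25 in air, with 0 counts in 13 of 18 libraries. These counts were concentrated: 6 of 6 in smoke came from library 6, 26 of 30 in e-cigarette from library 5, and 23 of 25 in air from library 2. Camp had 13 counts in smoke, 11 in e-cigarette and 37 in air, of which the same libraries gave 8, 6 and 30.

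Mmp8 was spread more evenly, with 13 counts in smoke, 23 in e-cigarette and 10 in air and at most 9 in 1 library. Retnlg (ENSMUSG00000022651), a resistin-like secreted protein gene of neutrophils, had 9 counts in smoke, 3 in e-cigarette and 17 in air. For Ngp, Camp, Mmp8, Ly6g and Retnlg, the 15 exact two-sided permutation tests of CPM between groups gave no p under 0.0952 and no adjusted p under 0.816. The lowest was Retnlg in e-cigarette versus air, with means of 0.0294 and 0.169 CPM. At these counts a difference was not detectable, and counts of 0 allow a level of up to 0.138 to 0.192 CPM per library.

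Cxcr2 (ENSMUSG00000026180, chr1:74153989-74161246, plus strand) is the chemokine receptor through which neutrophils follow CXCL ligands. In smoke its lowest, median and highest values were 0.315, 1.03 and 4.63 CPM. In e-cigarette they were 0.138, 2.67 and 4.14 CPM, and in air 0.403, 1.20 and 1.92 CPM. The highest libraries were smoke 6 and e-cigarette 3 and 5, and the lowest was e-cigarette 6, and the air range lay inside both exposed ranges. The log2 fold changes were 0.53 in smoke versus air, 1.14 in e-cigarette versus air and -0.62 in smoke versus e-cigarette (SE 0.64, 0.63 and 0.61), with edgeR adjusted p-values of 0.689, 0.200 and 0.536. Without smoke library 6, Cxcr2 was at -0.12 in smoke versus air.

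**Figure D3:**
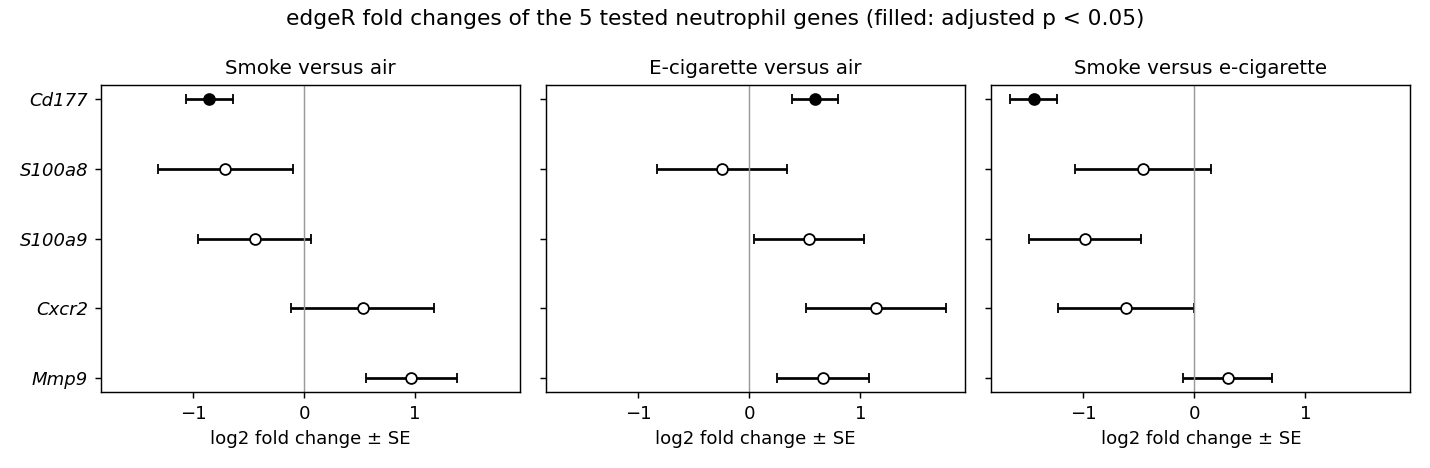
edgeR log2 fold changes with SE (horizontal axis) of the 5 tested genes (vertical axis) in the 3 comparisons. Cd177 is filled (adjusted p under 0.05) in each panel and has the smallest SE, 0.21 against 0.40 to 0.64 for the other 4 genes, whose points are open.

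Whether Cd177 moved apart from the other genes was tested on the ratio itself. For each library the log2 ratio of Cd177 to each of the other 9 genes was taken (CPM, prior count 2), and its group means were compared by exact two-sided permutation tests, 27 in all. None passed the correction with all 18 libraries, and with 27 tests a single result at the smallest p this design allows, 0.00216, has an adjusted p of 0.0584. A call in 1 gene and no call in another thus did not show that they differ.

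Against S100a9 the log2 ratio was 2.90 ± 1.21 in smoke, 3.14 ± 1.48 in e-cigarette and 2.93 ± 0.594 in air (SD, n = 6 each), a difference of -0.03 in smoke versus air (exact permutation p = 0.961). Against Mmp9 it was lower in smoke, at 1.73 ± 0.905, with 3.37 ± 0.772 in e-cigarette and 3.53 ± 0.980 in air (SD, n = 6 each). The differences were -1.80 in smoke versus air and -1.64 in smoke versus e-cigarette, both with an exact permutation p of 0.0130 and an adjusted p of 0.0877. Against Cxcr2 the differences were -0.91 in smoke versus air (exact permutation p = 0.171) and -0.65 in smoke versus e-cigarette (exact permutation p = 0.539).

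The smallest adjusted p, 0.0584, was for Retnlg in smoke versus e-cigarette, a difference of -1.79 (exact permutation p = 0.00216, the smallest the design gives). Camp in smoke versus e-cigarette followed with -1.45 (exact permutation p = 0.00649, adjusted p = 0.0877). Leaving out 1 library changed some of these outcomes. Without e-cigarette 5 the ratios to Retnlg (-1.84), Camp (-1.61) and Ngp (-1.33) passed in smoke versus e-cigarette, each with an adjusted exact permutation p of 0.0390. Without air 6 the ratio to Retnlg passed in smoke versus e-cigarette (-1.79) and in e-cigarette versus air (1.71), each with an adjusted exact permutation p of 0.0292. Where a gene had 0 counts the ratio is set by Cd177 and the prior count. Elsewhere the ratios to the 5 rarer genes also carry the spread of a few counts. In air their SD was 1.62 for Ngp and 1.48 for Camp. The direction of every ratio difference for smoke versus air and for smoke versus e-cigarette was negative, with each comparison sharing the same Cd177 values.

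Library by library, no correlation of Cd177 with another of the genes passed the test. Over 18 libraries the Pearson correlation of its log2 CPM with each of the 9 was between -0.20 (Retnlg) and 0.23 (Ngp), with no adjusted permutation p under 0.897 over the 9. Spearman coefficients ran from -0.27 for Mmp9 to 0.20 for Ngp, with no adjusted p under 0.899. For S100a9, r was 0.22 over all libraries and -0.10 without smoke 3 and 5, the 2 farthest from its median. Within groups the S100a9 correlation was -0.01 in smoke, -0.69 in e-cigarette and -0.18 in air.

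In the air group Cd177 and Mmp8 ran opposite ways (r = -0.88, exact permutation p = 0.0167, n = 6). This was 1 of 27 within-group values and was not adjusted. It rests on 10 Mmp8 counts.

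Other pairs of the genes did go together, in 2 separate sets. Of 36 pairs without Cd177, S100a9 and Cxcr2 had r = 0.70 (permutation test, adjusted p = 0.0141) and Spearman rho = 0.74 (adjusted p = 0.0124) over 18 libraries, and r = 0.59 without smoke 5 and e-cigarette 6. Within groups r was 0.83 in smoke and 0.85 in e-cigarette, but -0.41 in air. The value was positive within both exposed groups and negative within air, a difference between groups that was not tested.

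Ngp and Camp, both specific granule genes, had r = 0.85 (permutation test, adjusted p = 0.00684) and rho = 0.73 (adjusted p = 0.0124), and r = 0.71 without smoke 6 and air 2. Within groups r was 0.85 in smoke, 0.93 in e-cigarette and 0.95 in air, although 13 libraries had no Ngp count. S100a8 and Ngp had r = 0.70 (permutation test, adjusted p = 0.0141) but rho = 0.44 (adjusted p = 0.618). The value fell to 0.31 without e-cigarette 5 and air 2, so that relation rests on these libraries.

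Camp and Retnlg had r = 0.70 (permutation test, adjusted p = 0.0141), rho = 0.60 (adjusted p = 0.122) and r = 0.57 without air 1 and 2. Within groups r was 0.82 in smoke, 0.74 in e-cigarette and 0.62 in air. S100a8 and S100a9, despite their shared product, were not among the correlated pairs.

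**Figure D4:**
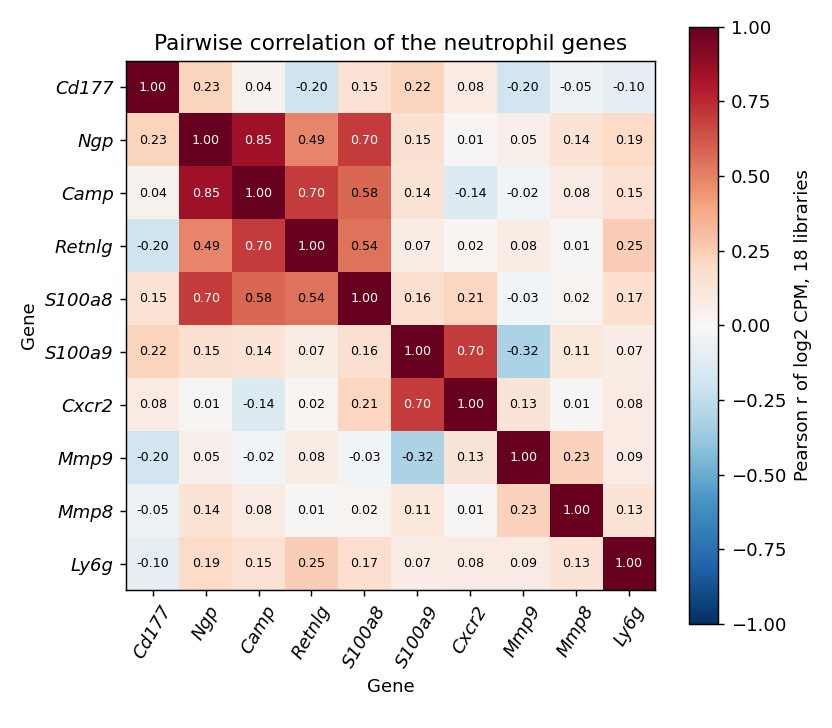
Pearson correlation of log2 CPM over 18 libraries for each pair of the 10 genes (colour scale from -1 to 1, value in each cell). The Cd177 row is pale throughout (-0.20 to 0.23), while Ngp with Camp (0.85) and S100a9 with Cxcr2 (0.70) stand out.

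Of 5 azurophil granule genes found in the table (Mpo, Elane, Prtn3, Ctsg and Ms4a3), 0 had enough counts to test. Of 11 tested genes of other specific and gelatinase granule products, 0 were called in smoke versus air by edgeR (4 at an unadjusted p under 0.05), with a median log2 fold change of -0.06 against 0.01 over all tested genes and a called share of 1.59%. Of all 17537 tested genes, 3485 had an unadjusted edgeR p under 0.05 in that comparison. In e-cigarette versus air 2 rose and 3 fell (median -0.02, against 0.01), where 25.1% of all tested genes were called. In smoke versus e-cigarette 1 was higher (median -0.06, against -0.01), where 16.5% of all were called.

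The risen genes in e-cigarette were Ltf, lactoferrin, at a log2 fold change of 1.35 (SE 0.41, edgeR adjusted p = 0.0232), and Pglyrp1, a peptidoglycan recognition protein gene, at 1.08 (SE 0.28, edgeR adjusted p = 0.00885). Both products are also made by glands, and glandular acinar transcripts summed to 14231 to 26238 CPM in smoke, 13122 to 49423 CPM in e-cigarette and 975 to 24447 CPM in air. With 4 composition scores (gland, cartilage, thyroid and muscle) as covariates, Ltf was at 0.28 (edgeR adjusted p = 0.511) and Pglyrp1 at 0.0044 (adjusted p = 0.993). Without air 4, 5 and 6, the libraries lowest in glandular transcripts, Pglyrp1 was at 0.56 and lost its call (edgeR adjusted p = 0.0618). Both calls were also lost without e-cigarette 2, 4, 5 and 6 (0.96 for Ltf and 0.65 for Pglyrp1). Cyba, a subunit of the NADPH oxidase cytochrome, fell by 1.43 in e-cigarette relative to air (SE 0.15, edgeR adjusted p = 3.27e-06) and was 0.96 higher in smoke than in e-cigarette (adjusted p = 2.17e-04). The fall of Cyba relative to air was called in all 33 alternatives.

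The remaining calls were Itgb2l, a neutrophil integrin beta subunit gene, which fell by 1.03 in e-cigarette (edgeR adjusted p = 0.00576), and the haptoglobin gene Hp, which fell by 0.53 (adjusted p = 0.00984). The Itgb2l call was lost without air 4, 5 and 6 (-0.28, edgeR adjusted p = 0.343) and with the 4 composition scores (-0.04, adjusted p = 0.964), and the Hp call with those scores (-0.71, adjusted p = 0.0617). Lcn2, neutrophil gelatinase-associated lipocalin, was not called in any comparison (-0.61, -0.05 and -0.56). Of 12 tested genes of mature neutrophil surface and cytosol, only the Fc receptor gene Fcgr4 was called by edgeR, falling by 0.90 in e-cigarette versus air (adjusted p = 0.0374), against 25.1% of all tested genes. That call was lost in 14 of 31 alternatives, 7 of which left out 1 library, and the value was -0.42 with the 4 composition scores (edgeR adjusted p = 0.734) and -0.49 without e-cigarette 2, 4, 5 and 6 (adjusted p = 0.611). Csf3r, the receptor of granulocyte colony-stimulating factor, was at 2.42 ± 0.591 CPM in smoke, 2.43 ± 0.668 in e-cigarette and 2.69 ± 0.759 in air (SD, n = 6 each).

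In smoke versus air 0 of 4 tested CXCR2 ligand genes were called by edgeR (3 at an unadjusted p under 0.05), with a median log2 fold change of -1.06 against 0.01 over all tested genes. Of all 17537 tested genes, 1.59% were called there and 3485 had an unadjusted edgeR p under 0.05. Cxcl1 was at -1.07, Cxcl5 at -1.04 and Cxcl2 at 0.74. In smoke versus e-cigarette Ppbp, pro-platelet basic protein, was 1.04 lower on the log2 scale (SE 0.34, edgeR adjusted p = 0.0389), 1 of 4 called, against 16.5% of all tested genes. That call was lost in 18 of 33 alternatives, 9 of which left out 1 library, and the value was -0.09 with the 4 composition scores (edgeR adjusted p = 0.993).

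Il1a, an epithelial and myeloid cytokine gene, rose in e-cigarette versus air by 0.90 (SE 0.26, edgeR adjusted p = 0.0138), 1 of 4 tested growth factor and cytokine genes, against 25.1% of all tested genes. It lost its call with the squamous score as a covariate (0.60, edgeR adjusted p = 0.104) and without e-cigarette 2, 4, 5 and 6 (0.63, adjusted p = 0.359). Among 7 receptor and partner genes 1 was called in e-cigarette versus air, against 25.1% of all tested genes. This was Ager, the receptor for advanced glycation end products that binds S100 proteins, which fell by 3.14 (SE 0.80, edgeR adjusted p = 0.00902). Its mean was 218 ± 34.4 CPM in smoke, 31.4 ± 39.7 CPM in e-cigarette and 276 ± 39.9 CPM in air (SD, n = 6 each). Thyroid transcripts were lower in the same e-cigarette libraries, and with the 4 composition scores as covariates Ager was at -0.45 (edgeR adjusted p = 0.570). Pecam1, the partner of human CD177, was at 88.2 ± 12.4 CPM in smoke, 70.4 ± 2.43 in e-cigarette and 73.9 ± 21.1 in air (SD, n = 6 each) and was not called.

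Among other matrix metalloproteinases, 0 of 10 were called by edgeR in smoke versus air (3 at an unadjusted p under 0.05). Of all 17537 tested genes, 1.59% were called there and 3485 had an unadjusted edgeR p under 0.05. Mmp2 rose by 0.74 and Mmp11 fell by 1.35 in e-cigarette versus air (edgeR adjusted p = 0.0430 and 1.88e-04). Mmp15 (-0.37) and Mmp16 (-0.75) fell there too, so that 1 was higher and 3 were lower of 10, against 25.1% of all tested genes. Mmp11 (1.22) and Mmp15 (0.47) were the 2 called in smoke versus e-cigarette, both higher, against 16.5% of all. The Mmp2 call was lost in 23 of 33 alternatives, 12 of which left out 1 library, and the Mmp11 fall was at -0.51 with the 4 composition scores (edgeR adjusted p = 0.428).

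Of 11 other S100 genes, 4 fell in e-cigarette versus air, against 25.1% of all tested genes, with S100a5 at -2.53 (SE 0.43, edgeR adjusted p = 2.39e-04). In smoke versus air 0 were called by edgeR (4 at an unadjusted p under 0.05). Of all 17537 tested genes, 1.59% were called there and 3485 had an unadjusted edgeR p under 0.05. With the 4 composition scores S100a5 was at -1.35 and lost its call (edgeR adjusted p = 0.248).

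The genes whose levels moved most with a member differed from member to member. Likeness was measured as the Pearson correlation of log2 CPM after the group mean was subtracted, over 18 libraries and 14100 protein-coding genes, and is given without a test. The genes most like Cd177 were Usp28 (0.85), Drc7 (0.82), Tspan2 (0.77), Il18bp (0.76) and Zmynd10 (0.76), of which Drc7 and Zmynd10 encode proteins needed for motile cilia. For S100a9, taken after its values were seen, they were Rhod (0.93), Phf24 (0.93), Capn12 (0.92), Blzf1 (0.91) and Kyat1 (0.91).

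The genes most like Cxcr2, likewise taken later, were Klk14 (0.93), Elovl1 (0.93), Cdsn (0.91), Tcf23 (0.91) and Alox12b (0.91), of which Klk14, Cdsn and Alox12b act in the cornified layer of squamous epithelium. For Mmp9 they were Adam19 (0.88), Col15a1 (0.86), Crispld2 (0.85), Fam240b (0.83) and Mfap4 (0.83), which include matrix genes. For S100a8 they were Rgma, Rtl8a, Bicra, Med25 and She, at 0.72 to 0.78, and for Ngp they included Pik3c2b, Ak3, Slc2a8 and Aldh5a1, at 0.70 to 0.75, where 13 libraries had no Ngp count.

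Scores of tissue marker lists, the mean of standardised log2 CPM over each list, were set beside the 5 tested genes in 55 correlations. Cd177 went with the ciliated cell score (r = 0.78, permutation test, adjusted p = 0.00688; rho = 0.81, adjusted p = 0.00193), and r was 0.72 without e-cigarette 6 and air 6. These p-values also carry the differences between groups, and r was 0.51 after the group means were subtracted. Within groups r was 0.78 in smoke, 0.69 in e-cigarette and 0.31 in air (exact permutation p = 0.0556, 0.144 and 0.551, n = 6 each). The summed ciliated markers were 195 to 248 CPM in smoke, 253 to 428 CPM in e-cigarette and 237 to 441 CPM in air.

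Of 9 tested genes of the ciliated list, 3 fell in smoke versus air, against 1.59% of all tested genes: Foxj1, the master regulator of motile cilia, by 0.61 (SE 0.13, edgeR adjusted p = 0.0281), the axonemal genes Cfap52 by 0.54 (adjusted p = 0.0435) and Spag6l by 0.59 (adjusted p = 0.0474). The median over the list was -0.54, against 0.01 over all tested genes. Without air 4, 5 and 6 none of the 3 was called, with Foxj1 at -0.45 (edgeR adjusted p = 0.0876), Cfap52 at -0.31 (adjusted p = 0.240) and Spag6l at -0.37 (adjusted p = 0.239). Smoke libraries had ciliated sums of 195 to 248 CPM, beside 237 to 259 CPM in air 1, 2 and 3, and 393, 338 and 441 CPM in air 4, 5 and 6. All 3 calls were also lost with the 4 composition scores (-0.41, -0.23 and -0.27 for Foxj1, Cfap52 and Spag6l) and with the replicate block, and in 7, 10 and 11 of the 18 fits without 1 library.

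In smoke versus e-cigarette 7 of the 9 ciliated genes were lower (median -0.61, against -0.01), against 16.5% of all tested genes. The calls of Foxj1, Hydin and Spag6l there were each lost in 4 of 33 alternatives. With the 4 composition scores 0 of all tested genes were called in that comparison. In e-cigarette versus air Spag6l alone was called, higher by 0.40 (edgeR adjusted p = 0.0496), against 25.1% of all tested genes, and that call was lost in 26 of 33 alternatives.

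With the ciliated score as a covariate, chosen after seeing the data, the Cd177 log2 fold change was -0.51 in smoke versus air (edgeR adjusted p = 0.311) and -1.01 in smoke versus e-cigarette (adjusted p = 0.0340). Of the 9 ciliated genes, 3 had a likeness to Cd177 over 0.5 (33.3%, median 0.41), against 2.13% of all other tested genes (median -0.03). The 8 thyroid genes had a median likeness to Cd177 of -0.63, farther from 0 than that of the ciliated genes. Ciliated transcripts thus moved with Cd177 across all 18 libraries, although their score had no exact permutation p under 0.05 with Cd177 within a group. Their part in the Cd177 difference between smoke and air cannot be told apart from the exposure in these libraries.

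S100a9 and Cxcr2 went with squamous epithelium instead. Cxcr2 had r = 0.73 with the squamous score (permutation test, adjusted p = 0.00839; rho = 0.76, adjusted p = 0.00642), 0.68 without smoke 5 and e-cigarette 2, and within groups 0.84 in smoke, 0.57 in e-cigarette and 0.94 in air. S100a9 had r = 0.67 (permutation test, adjusted p = 0.0223; rho = 0.62, adjusted p = 0.0694), 0.57 without the same 2 libraries, and within groups 0.95 in smoke, 0.76 in e-cigarette and -0.37 in air. Of 16 squamous genes, 8 had a likeness over 0.5 to S100a9 and 8 to Cxcr2, or 50.0%, against 5.69% and 6.01% of all other tested genes. For Cxcr2 such a share was not particular to squamous genes. It was reached or approached by 4 of 7 erythroid genes (57.1%), 3 of 6 osteoclast and osteoblast genes (50%) and 5 of 11 macrophage genes (45.5%). Summed squamous markers were 3706 to 20060 CPM in smoke, 8135 to 23175 CPM in e-cigarette and 4039 to 10442 CPM in air, and 2 of 16, Dsg3 (1.03) and Trp63 (0.67), rose in e-cigarette versus air, against 25.1% of all tested genes. The Dsg3 call was lost in 14 of 33 alternatives, 7 of which left out 1 library.

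With the squamous score as a covariate, S100a9 in e-cigarette versus air turned to a log2 fold change of -0.34 and Cxcr2 in smoke versus e-cigarette to 0.32, neither called. Mmp9 went with cartilage: r = 0.82 (permutation test, adjusted p = 0.00385; rho = 0.83, adjusted p = 0.00193), 0.63 without air 5 and 6, and within groups 0.90 in smoke, 0.89 in e-cigarette and 0.65 in air. Of 14 cartilage genes, 12 had a likeness to Mmp9 over 0.5 (85.7%), against 9.10% of all other tested genes. Its correlation with the mast cell score was r = 0.62 (permutation test, adjusted p = 0.0475; rho = 0.67, adjusted p = 0.0385) and 0.76 without air 2 and 3. Within groups it was 0.41 in smoke, 0.82 in e-cigarette and 0.09 in air. It was 0.42 after the group means were subtracted, and 0 of 5 mast cell genes had a likeness to Mmp9 over 0.5. With the osteoclast and osteoblast score Mmp9 had rho = 0.67 (permutation test, adjusted p = 0.0385) and r = 0.51 (adjusted p = 0.173). That r was 0.65 without e-cigarette 6 and air 3, and 0.59 in smoke, 0.50 in e-cigarette and 0.12 in air. The correlation of Mmp9 with the glandular score was r = 0.70 (permutation test, adjusted p = 0.0199) and rho = 0.55 (adjusted p = 0.112). It fell to r = 0.22 without air 5 and 6 and so rests largely on those libraries. Within groups r was 0.46 in smoke, 0.48 in e-cigarette and 0.79 in air, and 7 of 9 glandular genes had a likeness over 0.5 (77.8%).

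**Figure D5:**
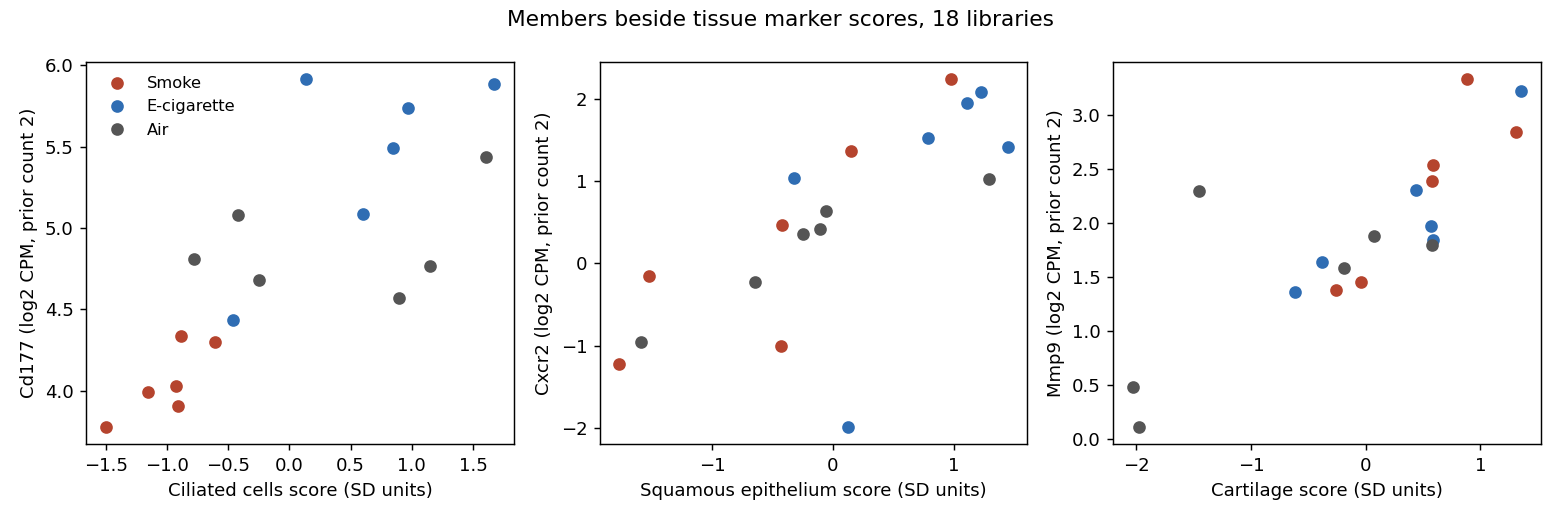
Log2 CPM (vertical axis) of Cd177, Cxcr2 and Mmp9 against the ciliated, squamous and cartilage marker scores (horizontal axis, SD units), 1 point per library coloured by group. Smoke libraries sit at the low left for Cd177 (r = 0.78 over all 18), and the groups intermingle for Cxcr2 (r = 0.73) and Mmp9 (r = 0.82).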

How the data were processed

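Per the labels' protocols, total RNA of whole larynges was made into libraries with an NEBNext Ultra kit without strand marking. STAR and featureCounts 1.5.0-p3 were used, per the submitters' processing notes, with GRCm38 (mm10). For the annotation release and the strand setting, nothing is stated in the labels. The authors deposited raw counts per gene for 18 libraries, and each column name matched 1 sample title.

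Genes were kept with filterByExpr (minimum count 10, minimum total 15), leaving 17537. The 3 groups were fitted in 1 edgeR 4.0.16 model (TMM, robust quasi-likelihood, R 4.3.3). "Called", "rose" and "fell" mean a Benjamini-Hochberg adjusted p under 0.05 over all tested genes, from edgeR unless another tool is named. SEs derive from the F statistic. CPM used TMM-scaled library sizes, RPKM the deposited gene lengths, and log2 CPM a prior count of 2. Correlations used 100000 permutations (within groups, all orders), and the fit was tested on simulated data.

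Members and lists were chosen with earlier results of these data known. All members are named, and from each list up to 3 called genes with the smallest p per comparison, of which part is given, plus 20 fixed genes and the 5 genes most like Cd177, S100a8 and Ngp (1 of them is not reported here). Alternatives were DESeq2 1.42.0, voom (limma 3.58.1), other scalings, filters, covariates, a replicate block and leaving out libraries. Within-group library pairs differed beyond counting noise (chi-square over degrees of freedom of 15.4 to 134).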

Additional observations from a re-analysis of the deposited data

Results flagged for a closer look

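Of the 30 sets of 6 libraries (10 genes in 3 groups), 9 had a highest library that stood apart from its group by Dixon's criterion. Its usual rate of 1 in 20 sets assumes normal values and is no benchmark here. Ngp and Ly6g each had 0 counts in 13 of 18 libraries, where few counts in 1 library meet the criterion. For Ngp these were smoke 6 at 0.347 CPM, e-cigarette 5 at 1.501 CPM and air 2 at 1.32 CPM, and for Camp smoke 6 at 0.463 CPM and air 2 at 1.73 CPM. S100a8 stood apart in e-cigarette 5 at 1.73 CPM, against 0.524 CPM in the next library. Mmp9 did so in e-cigarette 4 at 9.23 CPM, against 4.83 CPM in the next. Ly6g did so in smoke 5 at 0.126 CPM and e-cigarette 3 at 0.279 CPM, values that rest on 2 and 5 counts.

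For Cd177 the log2 fold change of smoke versus air minus that of e-cigarette versus air was -1.45. This is the smoke versus e-cigarette test given above (edgeR adjusted p = 1.80e-04), with all 6 smoke libraries below all 6 e-cigarette libraries. The call was lost without e-cigarette libraries 2, 4, 5 and 6, at -0.74 (edgeR adjusted p = 0.144). It was lost in 3 of 33 alternatives, each of which left out thyroid-poor libraries or modelled a thyroid score. A difference between the exposures and the amount of thyroid RNA cannot be told apart here.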

How the results depend on the processing

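Cd177 kept its sign in all 33 alternatives in smoke versus air. The call was lost with no low count filter (-0.88), the replicate block (-0.84), without air 4, 5 and 6 (-0.82), with the squamous score (-0.85), 4 composition scores (gland, cartilage, thyroid and muscle, -0.68) or the ciliated score (-0.51) as covariates, and members called were then 0. Leave-one-out values were -0.93 to -0.74, with 0 to 1 members called. In e-cigarette versus air the call was lost with library size only (0.49, where the median of all genes was -0.10), voom (0.41), no filter (0.59), 2 groups only (0.58), the block (0.56), without air 4, 5 and 6 (0.65), and with the squamous (0.60) or ciliated score (0.50). It reversed without e-cigarette 2, 4, 5 and 6 (-0.14), with the 4 scores (-0.36) and with the thyroid score (-0.12), and members called were then 0. Leave-one-out values were 0.48 to 0.72, with 0 to 1 members called. In smoke versus e-cigarette the call was lost, with 0 members called, without e-cigarette 2, 4, 5 and 6 (-0.74), with the 4 scores (-0.32) and with the thyroid score (-0.77). Leave-one-out fits called 1 to 2 members there, the added one being S100a9 without smoke 6 (edgeR adjusted p = 0.0470). Why these values moved was not tested.

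Genes called in smoke versus air numbered 279, against 970 with DESeq2, 1114 with voom, 184 with no filter, 109 with 2 groups only, 39 with the block, 451 without air 4, 5 and 6, 163 without e-cigarette 2, 4, 5 and 6, 527 with the 4 scores, 59 with the ciliated score, and 50 to 562 in leave-one-out fits (562 without air 2, 50 without air 5). In e-cigarette versus air they numbered 4406, against 688 without e-cigarette 2, 4, 5 and 6, 793 with the 4 scores and 134 with the thyroid score. In smoke versus e-cigarette they numbered 2897, against 147 without those libraries, 1615 with the squamous score, 887 with the ciliated score, 7 with the thyroid score and 0 with the 4 scores in edgeR (1104 at an unadjusted p under 0.05).

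Among uncalled members, S100a8 reversed in e-cigarette versus air with voom (0.28), the ciliated score (0.19) and leave-one-out (-0.46 to 0.27), and in smoke versus e-cigarette without e-cigarette 2, 4, 5 and 6 (0.00168) and with the thyroid score (0.0924). S100a8 was tested in only 15 of the 18 leave-one-out fits, since it missed the low count filter in the others. S100a9 reversed with the squamous score in e-cigarette versus air (-0.34) and with the 4 scores in smoke versus air (0.0875). Cxcr2 reversed in smoke versus air with the ciliated score (-0.52) and leave-one-out (-0.12 to 0.72), and in smoke versus e-cigarette with the squamous score (0.32). Mmp9 reversed in e-cigarette versus air with the 4 scores (-0.23) and the thyroid score (-0.26). Cxcl2 reversed in smoke versus air with voom (-0.49), and Cebpa in smoke versus e-cigarette with the 4 scores (-0.12), where it was 0.57 higher (edgeR adjusted p = 0.00913).

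The uncalled Cd177 ratios changed sign with prior count 0.5 for S100a9 in smoke versus air (0.0024) and for Mmp8 in e-cigarette versus air (-0.29), and with library size only for Mmp8 (-0.0126). Leave-one-out ranges crossed 0 in smoke versus air for S100a8 (-0.65 to 0.0321), S100a9 (-0.26 to 0.36), Ngp (-1.01 to 0.0038) and Camp (-0.93 to 0.0251). They did so in e-cigarette versus air for S100a9 (-0.22 to 0.56), Ngp (-0.17 to 0.94), Mmp8 (-0.31 to 0.29), Mmp9 (-0.37 to 0.12) and Cxcr2 (-0.95 to 0.16), and in smoke versus e-cigarette for S100a9 (-0.59 to 0.19) and Cxcr2 (-1.06 to 0.0446). The ratio tests that passed did so without e-cigarette 5 (Retnlg, Camp and Ngp in smoke versus e-cigarette) or without air 6 (Retnlg in smoke versus e-cigarette and in e-cigarette versus air), and in no other alternative run. The Cd177 correlations turned negative after the group means were subtracted for S100a8 (-0.0729), S100a9 (-0.38) and Cxcr2 (-0.21). Their leave-one-out ranges crossed 0 for S100a8 (-0.0394 to 0.29), Cxcr2 (-0.0480 to 0.35), Camp (-0.0817 to 0.18), Mmp8 (-0.25 to 0.0847), Ly6g (-0.16 to 0.0034) and Ngp (-0.0390 to 0.36).

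Same-numbered libraries of different groups did not deviate together (18 pairs, r -0.45 to 0.16, 3 over 0.1), so the replicate numbers give no pairing. With the block, genes called were 3836 in e-cigarette versus air and 2386 in smoke versus e-cigarette. Depth limits Ngp, Camp, Mmp8, Ly6g and Retnlg, and intervals and floors cover counting error only.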
